A study of Mus musculus with 10 samples.

Results

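The genes described here are 10 feedback inhibitors and output genes of RAS-MAPK signalling: the SPRED genes Spred1 and Spred2, the Sprouty genes Spry1, Spry2 and Spry4, the MAP kinase phosphatase genes Dusp4, Dusp5 and Dusp6, the ETS factor gene Etv5 and Phlda1. They are a list of gene names, drawn up with earlier results of these data known and with no threshold on their values, and all 10 were found among the 38215 genes of a table of expected counts. Each was read in all 10 libraries and set beside the level of Nras in the same library.

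Expression was profiled by RNA-seq in mouse acute myeloid leukaemia. The leukaemia had been started in lineage-depleted bone marrow with AML1-ETO and NrasG12D, both carried by the retroviral vector MSCV-IRES-GFP, and every primary recipient was a Rag2-/-γc-/- mouse, a strain without T, B and NK cells. GFP+ leukaemia cells from primary spleens were then passed to a second set of recipients, and the libraries came from GFP+ spleen cells of 5 immunocompetent C57BL/6J recipients (libraries 1, 3, 4, 5 and 6) and 5 Rag2-/-γc-/- recipients (libraries 7 to 11). The comparison between them addressed what an immunocompetent host does to the transcriptome of the leukaemia. All leukaemias in both groups carried both oncogenes and had first grown without lymphocytes. The labels give no age, sex, batch or number of primary leukaemias, so p-values reflect only the spread between recipients.

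Active RAS starts a kinase chain through RAF and MEK to ERK, and ERK switches on genes whose products turn the chain down again. SPRED proteins bring the RAS-inactivating protein neurofibromin to the membrane, Sprouty proteins act on steps around RAS and RAF, and the dual-specificity phosphatases remove the activating phosphates from ERK. Because these genes follow ERK activity in many cell types, their transcripts are often read as a measure of pathway output. Mutant RAS of the kind introduced here stays bound to GTP and resists such inactivation.

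The stretches before the transcription starts of the 4 abundant members that fell in C57BL/6J recipients are shown for the motif matches they hold. They are taken from the RefSeq promoter table of build GRCm38.p6, plus strand, 5′ to 3′, and end before the start of the gene in both RefSeq and GENCODE M21. Capitals mark matches on either strand to the ETS core GGAAG and to the CArG box, the recognised site of serum response factor.
Dusp5 (chr19:53528895-53529108): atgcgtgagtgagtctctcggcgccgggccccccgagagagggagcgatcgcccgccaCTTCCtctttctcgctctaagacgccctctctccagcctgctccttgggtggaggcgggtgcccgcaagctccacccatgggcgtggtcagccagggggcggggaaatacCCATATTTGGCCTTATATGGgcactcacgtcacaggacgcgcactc
Dusp6 (chr10:99262981-99263230): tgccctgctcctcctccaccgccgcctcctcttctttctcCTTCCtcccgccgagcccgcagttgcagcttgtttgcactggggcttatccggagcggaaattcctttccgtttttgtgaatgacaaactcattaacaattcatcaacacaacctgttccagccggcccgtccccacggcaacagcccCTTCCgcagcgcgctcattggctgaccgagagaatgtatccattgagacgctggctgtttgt
Spred1 (chr2:117120821-117121070): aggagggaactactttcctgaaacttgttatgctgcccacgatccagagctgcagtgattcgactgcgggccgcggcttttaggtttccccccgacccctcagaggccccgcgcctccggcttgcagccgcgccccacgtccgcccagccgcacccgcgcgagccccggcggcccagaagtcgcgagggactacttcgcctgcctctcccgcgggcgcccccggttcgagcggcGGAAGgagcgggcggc
Spred2 (chr11:19924192-19924374): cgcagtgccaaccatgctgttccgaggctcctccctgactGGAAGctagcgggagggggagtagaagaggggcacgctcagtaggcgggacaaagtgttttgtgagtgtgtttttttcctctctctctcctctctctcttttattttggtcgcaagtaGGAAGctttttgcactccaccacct

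Over the full 250 bases before the RefSeq start, Dusp5 held 2 CArG boxes side by side, at positions -82 to -73 and -72 to -63 from the start. No other member whose window was read held one, and 1.47% of the 32851 windows in the table did. The ETS core occurred 5 times before Spred2 (3 of them in bases not shown), 2 times before Dusp6, and once each before Spred1 and Dusp5. It is a short and common word, present in 64.1% of all windows. Spry1 and Spry2 had none in their windows, and Etv5 had 2 before its second start and 0 before its first. The AP-1 word TGANTCA (6.75% of all windows) and the CRE word TGACGTCA (1.55%) were absent from the windows of all 7 members that were read, and no match of one motif overlapped a match of another. These matches describe letters in the windows, and binding was not measured.

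Library totals were 32703932 to 44097690 expected counts in C57BL/6J recipients and 28157745 to 62461126 in Rag2-/-γc-/- recipients, and 13967 genes had enough counts to be tested. By the quasi-likelihood test of edgeR, 464 of them (3.32%) rose and 624 (4.47%) fell in C57BL/6J recipients (Benjamini-Hochberg adjusted p under 0.05). Neutrophil markers were low: the 10 genes summed to 3.76 to 28.5 CPM in C57BL/6J recipients and 5.33 to 29.2 CPM in Rag2-/-γc-/- recipients. Of these 10 genes, 1 had a higher mean in C57BL/6J recipients. The 10 dendritic cell markers summed to 5320 to 6450 CPM and 3510 to 5100 CPM in the same groups, without overlap, and 9 of 10 had a higher mean in C57BL/6J recipients. Markers of red pulp macrophages, which take up blood cells in the spleen, summed to 299 to 803 CPM in C57BL/6J recipients and 838 to 1350 CPM in Rag2-/-γc-/- recipients, again without overlap, and none of the 10 had a higher mean in C57BL/6J recipients. Without Hmox1, the most abundant of them, the macrophage sums overlapped, at 29.7 to 258 CPM in C57BL/6J recipients and 217 to 454 CPM in Rag2-/-γc-/- recipients. T cell markers (17 of 18 with a higher mean in C57BL/6J recipients) summed to 69.6 to 136 CPM and 22.3 to 48.1 CPM, for the most part through Cd8a, which dendritic cells can also express. Without Cd8a the sums were 4.37 to 70.7 CPM in C57BL/6J recipients and 6.33 to 9.18 CPM in Rag2-/-γc-/- recipients, where Trac, Trbc2, Cd8b1, Cd28 and Thy1 were at 0 in all 5 libraries. B cell markers summed to 86.2 to 323 CPM in C57BL/6J recipients and 60.0 to 161 CPM in Rag2-/-γc-/- recipients, and all 11 had a higher mean in C57BL/6J recipients. Without Ighm, the most abundant of them, the B cell sums were 3.98 to 155 CPM in C57BL/6J recipients and 1.87 to 2.88 CPM in Rag2-/-γc-/- recipients, without overlap. NK cell markers summed to 14.8 to 22.0 and 3.27 to 10.4 CPM in the same order of groups. Without Klrk1, the most abundant of them, the NK cell sums overlapped, at 1.54 to 6.2 and 0.817 to 4.37 CPM. Erythroid markers summed to 105 to 198 and 158 to 273 CPM, and 1 of 10 had a higher mean in C57BL/6J recipients. Megakaryocyte markers summed to 7.02 to 12.1 and 1.80 to 7.17 CPM, and 3 of 6 had a higher mean in C57BL/6J recipients. Without Itga2b, the most abundant, these sums were 0.403 to 2.97 and 0.653 to 4.43 CPM. Endothelial and stromal markers summed to 1.39 to 2.18 and 0.882 to 1.92 CPM, but only 1 of 9 had a higher mean in C57BL/6J recipients. Without Col1a1, the most abundant, they summed to 0.544 to 1.09 and 0.751 to 1.63 CPM. In bulk RNA, fewer cells of a type and less RNA per cell cannot be told apart, and the part of these markers in the results that follow was not tested.

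Nras itself varied widely within the Rag2-/-γc-/- group. The C57BL/6J libraries held 374, 347, 360, 301 and 302 CPM of Nras (libraries 1, 3, 4, 5 and 6), where CPM are counts scaled to library size by TMM. The Rag2-/-γc-/- libraries held 956, 787, 745, 348 and 370 CPM (libraries 7 to 11). Libraries 7, 8 and 9 stood far above the C57BL/6J libraries, whereas libraries 10 and 11 lay inside their range. Nras fell in C57BL/6J recipients, with a log2 fold change of -0.93 ± 0.26 (SE; adjusted p = 0.0498 in edgeR). The call was kept in 2 of 10 fits that left out 1 library, those that lacked library 10 or 11 (highest adjusted p of the other 8 fits, 0.12), and the difference was -0.10 ± 0.12 without Rag2-/-γc-/- libraries 7, 8 and 9 (adjusted p = 0.859). In limma-voom the Nras log2 fold change of -0.82 did not pass (adjusted p = 0.0827). Whether the Nras counts include reads of the introduced NrasG12D is not given in the sources used here. The Nras levels, and every slope on them, may therefore stand for the mouse's own gene alone or for both together, which cannot be told apart in these counts.

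Levels of the members, set per kilobase of merged exon so that genes can be compared, spread over more than 3 orders of magnitude in the same cells. Dusp6 was the most abundant member at 69.9 ± 13.7 CPM per kilobase (SD, n = 10 libraries), followed by Phlda1 at 41.0 ± 8.58, Etv5 at 38.8 ± 2.52, Dusp5 at 33.5 ± 18.6 and Spry4 at 24.1 ± 5.41. Within the same library, Dusp6 per kilobase exceeded Phlda1 in 10 of 10 libraries. Below it the order was mixed: Phlda1 exceeded Etv5 in 5 of 10 libraries, Etv5 exceeded Dusp5 in 7 of 10 and Dusp5 exceeded Spry4 in 7 of 10. Spred1 (12.3 ± 3.04 CPM per kilobase) lay below Spry4 in 10 of 10 libraries and above Spred2 (10.9 ± 2.57) in 9 of 10. A wide gap separated these 7 genes from Spry1 at 0.159 ± 0.0973, Dusp4 at 0.155 ± 0.0687 and Spry2 at 0.0251 ± 0.0504 CPM per kilobase. The highest value of these 3 in any library was 0.312 (Dusp4), and the lowest of the other 7 was 7.85 (Spred2). The Sprouty and phosphatase families thus each had abundant and nearly silent members: Spry4 against Spry1 and Spry2, and Dusp6 and Dusp5 against Dusp4.

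**Figure D1:**
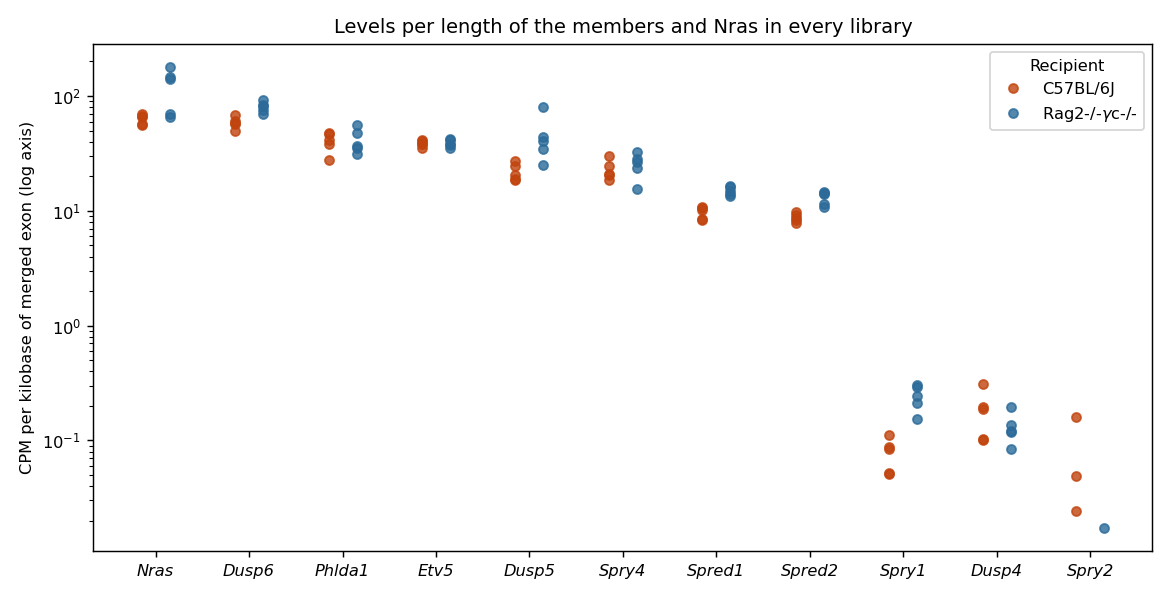
Level of each member and of Nras in CPM per kilobase of merged exon (log axis), 1 point per library, with C57BL/6J recipients left and Rag2-/-γc-/- recipients right; libraries at 0 (Spry2 only) cannot be drawn on this axis. The abundant members lie between 7.85 (Spred2) and 92.6 (Dusp6), and Spry1, Dusp4 and Spry2 lie at or under 0.312.

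Of the 10 members, 9 were tested between recipients; Spry2 had too few counts. In edgeR none rose and 5 fell in C57BL/6J recipients (Spred1, Spred2, Spry1, Dusp5 and Dusp6), where 4.47% of all tested genes fell and 3.32% rose. The count that rose was also 0 at an unadjusted p under 0.05, in DESeq2 and in limma-voom. The median log2 fold change of the 9 was -0.47, against 0.00 over all tested genes, and 8 of 9 were below 0. In 4 of the members (Spred1, Spred2, Spry1 and Dusp6) every C57BL/6J library lay below every Rag2-/-γc-/- library, a pattern shown by 4.37% of tested genes. Spry1 is part of each of these counts, although it passed the filter on low counts through the group in which it was higher. It reached the filter's minimum in 2 of 5 C57BL/6J and 5 of 5 Rag2-/-γc-/- libraries. Where 1 CPM in 5 libraries was required, which leaves out Spry1, 4 members fell. Spry4, Dusp4, Etv5 and Phlda1 did not pass the test.

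Both SPRED genes, whose products act on RAS itself through neurofibromin, fell. Spred1 (chromosome 2, 117121374 to 117182279, plus strand, protein-coding; GENCODE M21 on GRCm38) had 57.1, 72.0, 72.9, 68.6 and 56.4 CPM in C57BL/6J libraries 1, 3, 4, 5 and 6. It had 112, 109, 94.1, 91.6 and 101 CPM in Rag2-/-γc-/- libraries 7 to 11. The highest C57BL/6J library was thus clear of the lowest Rag2-/-γc-/- library, and libraries 10 and 11, with C57BL/6J-like Nras, sided with their own group. The group means were 65.4 ± 8.09 CPM and 101 ± 8.85 CPM (SD, n = 5 each), and the log2 fold change was -0.63 ± 0.10 (SE; adjusted p = 0.00361 in edgeR). This was the smallest adjusted p among the members, and the call was kept in all 10 fits that left out 1 library.

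Spred2 (chromosome 11, 19924375 to 20024026, plus strand) had 38.3, 45.1, 42.7, 39.9 and 36.3 CPM in C57BL/6J libraries 1, 3, 4, 5 and 6, against 66.9, 65.8, 64.7, 49.3 and 53.0 CPM in Rag2-/-γc-/- libraries 7 to 11. The groups did not overlap, but within the Rag2-/-γc-/- group the 3 libraries with high Nras were also the 3 with the highest Spred2. The log2 fold change was -0.57 ± 0.11 (SE; adjusted p = 0.0102 in edgeR), kept past the threshold in all 10 fits that left out 1 library. Without libraries 7, 8 and 9 it was -0.34 ± 0.11 (adjusted p = 0.203), and without libraries 10 and 11 it was -0.70 ± 0.09 (adjusted p = 0.000511).

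Of the Sprouty genes Spry1, expressed at a low level, fell, and Spry4, the abundant one, did not pass the test; the difference between their responses was not tested. Spry1 (chromosome 3, 37639947 to 37644598, plus strand) was near the limit of detection, with 8, 6, 10, 15 and 6 rounded counts in C57BL/6J libraries 1, 3, 4, 5 and 6 and 42, 19, 17, 26 and 35 in Rag2-/-γc-/- libraries 7 to 11. Scaled to depth these were 0.148 to 0.326 CPM in C57BL/6J recipients and 0.450 to 0.885 CPM in Rag2-/-γc-/- recipients, without overlap. The log2 fold change of -1.62 ± 0.31 (SE; adjusted p = 0.00973 in edgeR) was the largest in size of the 9 tested members, and its call was kept in all 10 fits that left out 1 library. The gene stood at or above the filter's minimum of 0.253 CPM in 2 of 5 C57BL/6J and 5 of 5 Rag2-/-γc-/- libraries, so it entered the test through the group in which it was higher. GENCODE M21 annotates the gene Gm42922 over Spry1 on the other strand, and without stated strand information its reads cannot be told apart from those of Spry1.

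Spry4 (chromosome 18, 38586268 to 38601268, minus strand) had 88.2, 142, 117, 97.2 and 99.3 CPM in C57BL/6J libraries 1, 3, 4, 5 and 6, against 156, 126, 113, 73.7 and 135 CPM in Rag2-/-γc-/- libraries 7 to 11. The groups overlapped widely, and the lowest value of all was in Rag2-/-γc-/- library 10. Its log2 fold change was -0.15 ± 0.19 (SE; adjusted p = 0.624 in edgeR). Spry2 (chromosome 14, 105891949 to 105896819, minus strand), an inhibitor of receptor tyrosine kinase signalling, had 11, 0, 4, 0 and 2 counts in the C57BL/6J libraries and 0, 0, 1, 0 and 0 in the Rag2-/-γc-/- libraries. The summed 17 counts against 1 gave a ratio of 17.1 after scaling, with an exact 95% interval of 2.67 to 713 that covers counting error only. Most of these counts came from C57BL/6J library 1, which also had the highest sums in its group of B cell (323 CPM), T cell (136 CPM), erythroid (198 CPM) and red pulp macrophage markers (803 CPM).

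The abundant phosphatase genes Dusp6 and Dusp5 both fell. Dusp6 (chromosome 10, 99263231 to 99267488, plus strand), which encodes the cytoplasmic phosphatase specific for ERK, had 189, 212, 183, 155 and 179 CPM in C57BL/6J libraries 1, 3, 4, 5 and 6. It had 290, 257, 221, 239 and 262 CPM in Rag2-/-γc-/- libraries 7 to 11. The closest pair was C57BL/6J library 3 and Rag2-/-γc-/- library 9, and the groups did not overlap. Its group means were 184 ± 20.6 and 254 ± 26.1 CPM (SD, n = 5 each), with a log2 fold change of -0.47 ± 0.10 (SE; adjusted p = 0.0192 in edgeR). The call was lost without C57BL/6J library 6 (adjusted p = 0.0547) and kept in the other 9 such fits.

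Dusp5 (chromosome 19, 53529109 to 53542431, plus strand), which encodes the nuclear ERK phosphatase and whose promoter window holds the pair of CArG boxes, had 51.1, 67.6, 61.0, 46.7 and 45.8 CPM in C57BL/6J libraries 1, 3, 4, 5 and 6. It had 197, 101, 86.0, 62.0 and 110 CPM in Rag2-/-γc-/- libraries 7 to 11. Library 7 stood far above the rest of its group, and library 10 fell inside the C57BL/6J range. The log2 fold change was -1.03 ± 0.26 (SE; adjusted p = 0.0355 in edgeR). This call was the least stable of the 5: it was kept in 4 of 10 fits that left out 1 library and lost when library 1, 4, 5 or 6 of the C57BL/6J group, or library 8 or 9 of the other group, was left out (adjusted p up to 0.0929). Among these 10 fits the log2 fold change ranged from -1.18 to -0.73. An antisense gene is annotated over Dusp5 in GENCODE M21, and its reads cannot be told apart from those of Dusp5. The same limit holds for Spry4 and Phlda1, which Gm27369 and Gm27804 (Spry4) and Gm28592 (Phlda1) overlap on the other strand. Dusp4 (chromosome 8, 34807297 to 34819894, plus strand), the second nuclear phosphatase, was at 0.277 to 0.855 CPM in C57BL/6J recipients and 0.229 to 0.531 CPM in Rag2-/-γc-/- recipients, with a log2 fold change of 0.43 ± 0.37 (SE; adjusted p = 0.462 in edgeR). The highest value was again in C57BL/6J library 1.

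Etv5 and Phlda1, which are read as outputs of the pathway, overlapped widely between the groups and did not pass the test. Etv5 (chromosome 16, 22381309 to 22439719, minus strand), a transcription factor gene of the PEA3 subfamily, had 166, 170, 156, 156 and 145 CPM in C57BL/6J libraries 1, 3, 4, 5 and 6 and 145, 152, 158, 171 and 173 CPM in Rag2-/-γc-/- libraries 7 to 11. It was the steadiest member, with a coefficient of variation of 6.17% in C57BL/6J recipients and 7.50% in Rag2-/-γc-/- recipients. Its log2 fold change was -0.01 ± 0.08 (SE; adjusted p = 0.941 in edgeR). Phlda1 (chromosome 10, 111506286 to 111508645, plus strand), a pleckstrin homology-like domain gene induced by ERK, ranged from 61.7 to 105 CPM in C57BL/6J recipients and from 69.4 to 124 CPM in Rag2-/-γc-/- recipients, with a log2 fold change of -0.04 ± 0.18 (SE; adjusted p = 0.916 in edgeR).

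**Figure D2:**
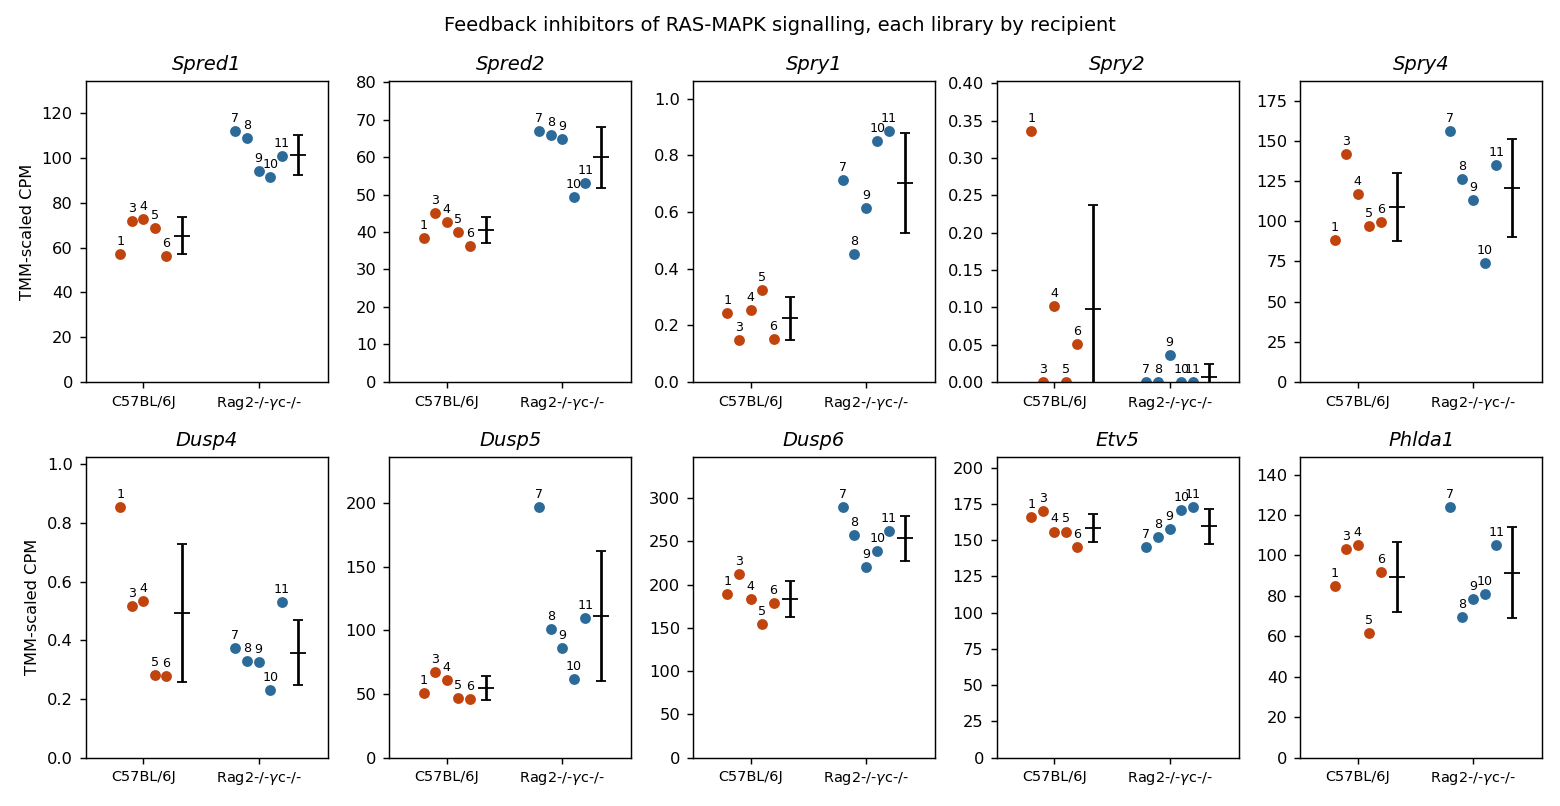
TMM-scaled CPM of the 10 members in each library (numbered points) of C57BL/6J recipients (left in each panel) and Rag2-/-γc-/- recipients (right), with the mean and SD of each group as a bar; axes start at 0 and the bars of Spry2 are cut off there. Spred1, Spred2, Spry1 and Dusp6 show no overlap between the groups, and Dusp5 is set apart by library 7 at 197 CPM.

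The calls of the 5 decreases depended on which Rag2-/-γc-/- libraries entered, and for Spry1, Spred2 and Dusp5 the size did too. Without libraries 10 and 11 the same 5 members fell, in a fit that called 17.4% of genes lower. In that fit Spry1 had a log2 fold change of -1.38 ± 0.36 and Dusp5 one of -1.23 ± 0.25 (SE). With libraries 7, 8 and 9 removed (5 against 2 remain, and 0.871% of genes were called lower), none of the 5 was called by edgeR. The log2 fold changes were then -0.56 ± 0.13 for Spred1 (adjusted p = 0.075), -1.93 ± 0.41 for Spry1 (adjusted p = 0.0552) and -0.45 ± 0.13 for Dusp6 (adjusted p = 0.147), close to or beyond the values with all libraries. For Dusp5 the value was -0.66 ± 0.22 (adjusted p = 0.231), and all 5 had an unadjusted p under 0.05 (0.00112 to 0.0172). When the Nras level was added to the fit as a covariate, an alternative chosen after the data were seen that called 1.8% of genes lower, Spred1 (-0.53 ± 0.12, adjusted p = 0.0426) and Spry1 (-1.92 ± 0.38, adjusted p = 0.0193) kept their calls. Spred2 (-0.31 ± 0.10, adjusted p = 0.118), Dusp5 (-0.49 ± 0.27, adjusted p = 0.428) and Dusp6 (-0.39 ± 0.13, adjusted p = 0.14) did not.

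**Figure D3:**
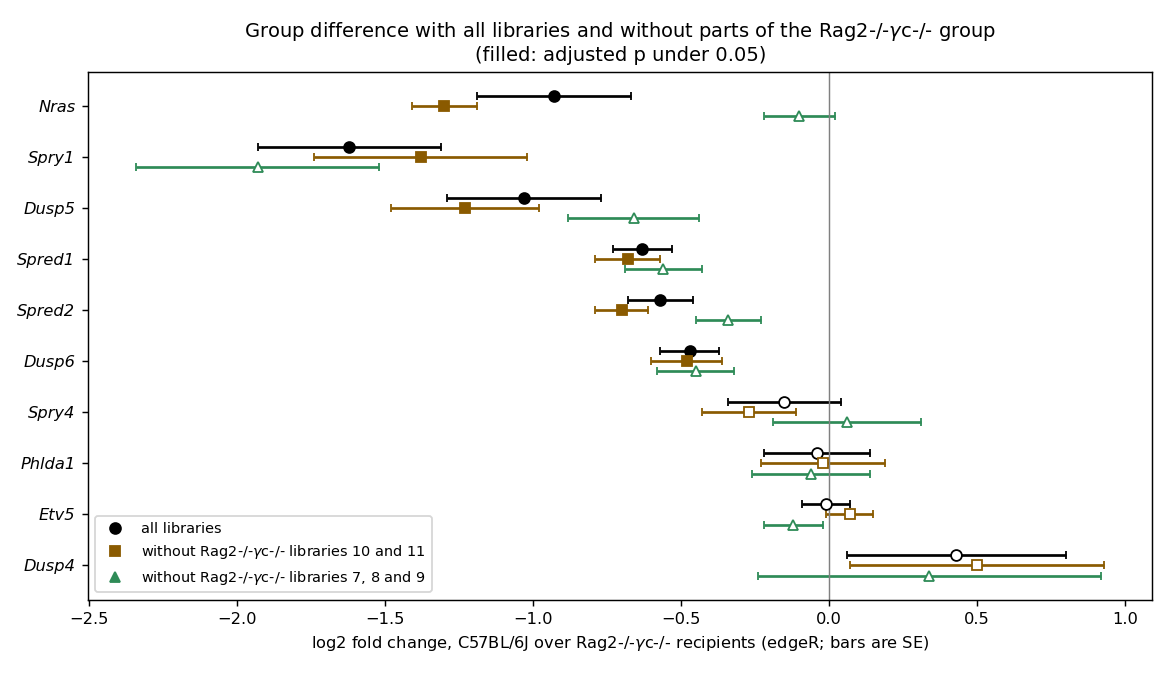
Log2 fold change of each tested member and Nras, C57BL/6J over Rag2-/-γc-/- recipients, with SE bars, from all libraries, without Rag2-/-γc-/- libraries 10 and 11, and without libraries 7, 8 and 9; filled symbols have an edgeR adjusted p under 0.05. Nras moves between -1.30 and -0.10 with the libraries used. Spry1 moves between -1.93 and -1.38, Dusp5 between -1.23 and -0.66 and Spred2 between -0.70 and -0.34. Spred1 stays between -0.68 and -0.56 and Dusp6 between -0.48 and -0.45.

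The reading against Nras within the groups asked whether libraries with more Nras also had more of each member once the difference between recipients was set aside. The slope is the change in log2 level of a gene per unit of log2 Nras, in an edgeR fit with a group term. Over all tested genes 12.2% had a positive and 14.9% a negative slope (adjusted p under 0.05), so a slope was a common property in these libraries. Of the 9 members 1 had a positive slope, Spred2 at 0.30 ± 0.08 (SE; adjusted p = 0.0193 in edgeR), and none a negative one. The slope of Dusp5 was steeper, at 0.62 ± 0.23, but did not pass the threshold (edgeR adjusted p = 0.068). Spry4 had a slope of 0.34 ± 0.19 (adjusted p = 0.224), Spred1 0.12 ± 0.11 (adjusted p = 0.423) and Dusp6 0.09 ± 0.11 (adjusted p = 0.57). Etv5 and Spry1 had slopes of -0.13 ± 0.08 (adjusted p = 0.237) and -0.38 ± 0.30 (adjusted p = 0.386), and Phlda1 and Dusp4 had 0.11 ± 0.20 and 0.14 ± 0.44 (adjusted p = 0.725 and 0.846).

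The calls of slopes needed both Rag2-/-γc-/- libraries 7, 8 and 9 and libraries 10 and 11: with either set left out, which narrows the range of Nras, edgeR called a slope in none of the genes tested. At an unadjusted p under 0.05 there were then 547 positive and 655 negative slopes among 14460 genes without libraries 10 and 11. Without libraries 7, 8 and 9 there were 704 and 351 among 14575 genes. Of the 9 members 3 were positive at that level in the first fit (Dusp5, Dusp6 and Phlda1) and 1 in the second (Dusp4). In both fits 0 were negative. The errors of the members' slopes were wider in these fits. The Spred2 slope was 0.25 ± 0.32 without libraries 10 and 11 and 0.40 ± 0.44 without libraries 7, 8 and 9. Dusp5 had slopes of 2.22 ± 0.55 and 1.41 ± 0.83 in the same fits, Dusp6 0.83 ± 0.34 and 0.76 ± 0.47, and Spry4 0.83 ± 0.55 and 0.79 ± 1.01. The steepest were those of Phlda1 (1.61 ± 0.56 and 1.23 ± 0.74), Dusp5 and the scarce Dusp4 (2.85 ± 1.28 and 4.82 ± 1.53), none past the threshold (adjusted p = 0.409 to 0.773). With single libraries left out, the slope of Spred2 was 0.32 ± 0.10 without library 7, 0.27 ± 0.11 without library 10 and 0.33 ± 0.10 without library 11, where the call was lost (adjusted p = 0.0578, 0.155 and 0.0539). Spry4 (adjusted p = 0.028) passed only without library 11, and Dusp5 (adjusted p down to 0.0181) only without library 9 or 11, among fits that left out 1 library. Any other property by which libraries 7, 8 and 9 differ from 10 and 11 cannot be told apart from their Nras level. Without the group term 4 members had a positive slope (Spred1, Spred2, Dusp5 and Dusp6), in a fit in which 18.3% of genes did.

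**Figure D4:**
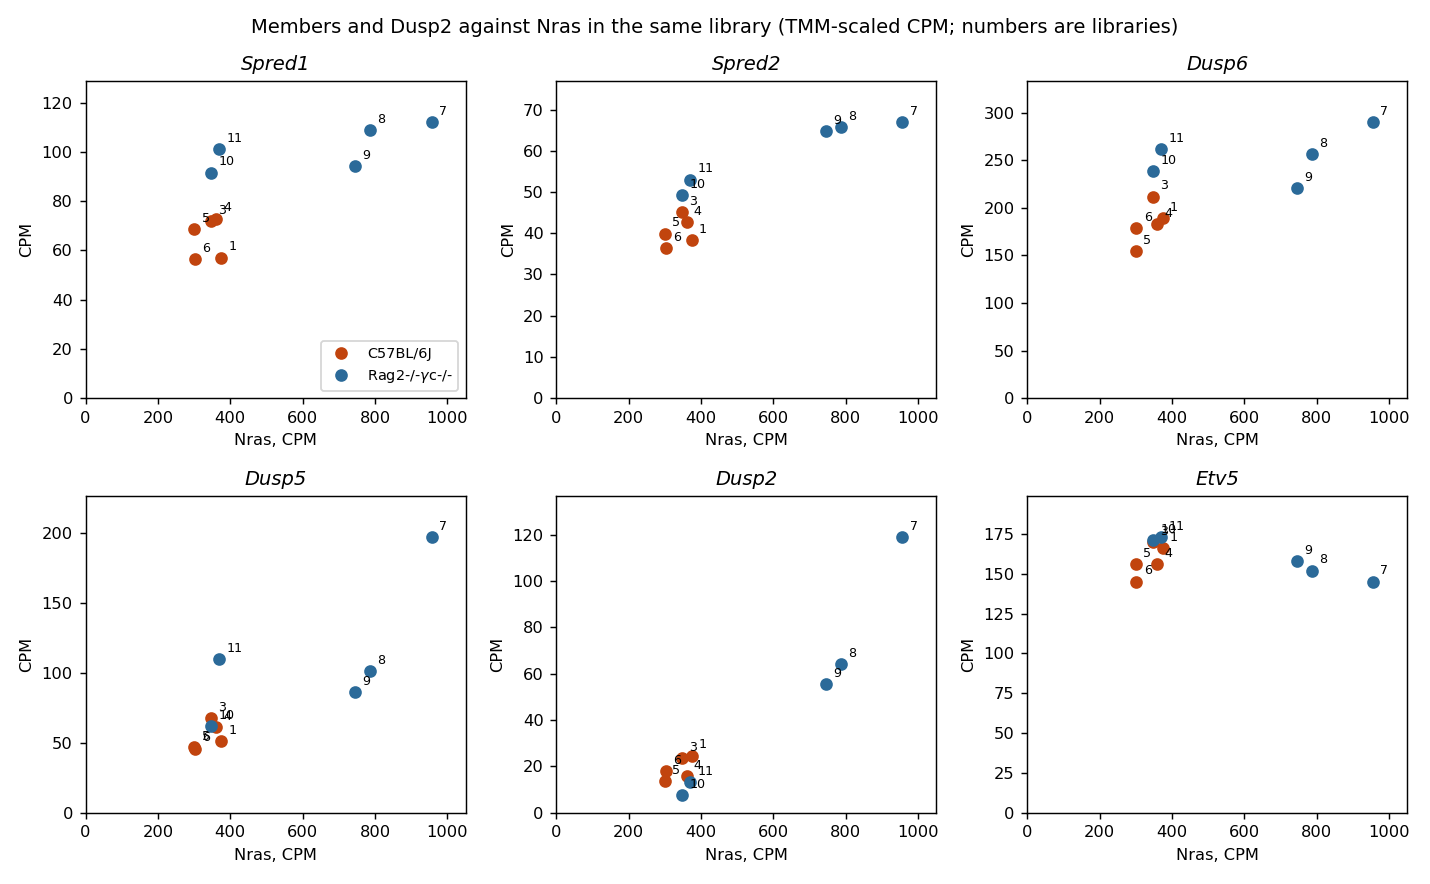
TMM-scaled CPM of Spred1, Spred2, Dusp6, Dusp5, Etv5 and, for comparison, Dusp2 against that of Nras in the same library (numbers are libraries). Rag2-/-γc-/- libraries 10 and 11 share the Nras level of the C57BL/6J libraries (301 to 374 CPM) but lie above all of them for Spred1, Spred2 and Dusp6, while for Dusp2 they lie below all of them.

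Other genes of the pathway place the members among their relatives. Over all 13967 tested genes edgeR called 3.32% higher and 4.47% lower in C57BL/6J recipients. DESeq2 called 803 of these 13967 higher and 1155 lower, limma-voom 482 and 566, and limma-voom with quality weights 3306 and 3218. Of the other dual-specificity MAP kinase phosphatases, 0 of 7 rose in edgeR (0 at an unadjusted p under 0.05; 1 called by limma-voom with quality weights) and 1 fell in C57BL/6J recipients (2 in DESeq2, 1 in limma-voom and 5 with quality weights). It was Dusp7, which encodes a cytoplasmic ERK phosphatase close to Dusp6, at 387 ± 46.7 CPM against 509 ± 51.1 CPM (SD, n = 5 each; log2 fold change -0.39 ± 0.10, SE; adjusted p = 0.0404 in edgeR). This call was kept in 3 of 10 fits that left out 1 library, those that lacked library 1, 3 or 10 (highest adjusted p of the others, 0.11), and the Dusp7 log2 fold change did not pass with no filter on low counts (adjusted p = 0.0579). Along Nras, 2 of the 7 had positive slopes (12.2% of all tested genes did), both above the highest slope among the members (0.62, Dusp5). The immediate-early phosphatase gene Dusp2 had 24.7, 23.7, 15.9, 13.6 and 18.0 CPM in C57BL/6J libraries 1, 3, 4, 5 and 6 and 119, 64.3, 55.6, 7.61 and 13.1 CPM in Rag2-/-γc-/- libraries 7 to 11, with a slope of 2.41 ± 0.19 (SE; adjusted p = 7.3e-05 in edgeR). Dusp1, also an immediate-early gene, had a slope of 1.81 ± 0.34 (adjusted p = 0.00332). Neither passed the test between recipients (log2 fold changes -1.44 ± 0.59 for Dusp2 and -1.66 ± 0.54 for Dusp1, edgeR adjusted p = 0.158 and 0.0846). Of the remaining family genes Spred3 and Phlda3 were tested, and neither passed between recipients in edgeR. Phlda3, a p53-induced inhibitor of AKT, had a log2 fold change of 1.02 ± 0.32 (adjusted p = 0.0752), was called higher by DESeq2 and limma-voom, and had a slope of -0.92 ± 0.23 (edgeR adjusted p = 0.0129).

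In the RAS-RAF-MEK-ERK core 1 of 14 genes rose and 1 fell, Nras being the one that fell. Over all tested genes 3.32% rose and 4.47% fell. Ksr2, a scaffold for RAF, MEK and ERK, had 3.13 to 4.44 CPM in C57BL/6J recipients and 0.849 to 1.25 CPM in Rag2-/-γc-/- recipients (log2 fold change 1.80 ± 0.19, SE; adjusted p = 0.000269 in edgeR). The median of the core was 0.06. No core gene had a slope on Nras past the threshold in edgeR or limma-voom (1 positive and 3 negative at an unadjusted p under 0.05 in both). Of 14 adaptors and exchange factors upstream of RAS none rose in edgeR (2 at an unadjusted p under 0.05; 2 called by DESeq2 and 0 by limma-voom, 3 with quality weights) and 2 fell, the exchange factor genes Sos2 (-0.68 ± 0.16, adjusted p = 0.0292) and Rasgrf1 (-1.57 ± 0.43, adjusted p = 0.0442; at most 0.435 CPM in C57BL/6J recipients and 1.35 CPM in Rag2-/-γc-/- recipients). DESeq2 called 4 of the 14 lower, limma-voom 1, and 7 with quality weights. Of all 13967 tested genes these fits called 1155, 566 and 3218 lower. Rasgrf1 stood at or above the filter's minimum in 2 of 5 C57BL/6J and 5 of 5 Rag2-/-γc-/- libraries, so it too entered the test through the group in which it was higher. The Rasgrf1 log2 fold change did not pass in limma-voom (adjusted p = 0.0597) or in edgeR with no filter on low counts (adjusted p = 0.0556). With 1 library left out, the call of Sos2 was kept only in the absence of library 3, 10 or 11, and that of Rasgrf1 only in the absence of library 10 or 11. Positive slopes were found in 4 of the 14, against 12.2% of all tested genes: Gab2 (0.58 ± 0.09), Sos2 (0.53 ± 0.10), Rasgrf2 (0.72 ± 0.14) and Ptpn11 (0.28 ± 0.08), which encodes the phosphatase SHP2.

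Among 17 RAS GTPase-activating proteins and other negative regulators 1 rose and 3 fell, where 3.32% of all tested genes rose and 4.47% fell. Dab2ip, a RAS GTPase-activating protein gene, was at 0.825, 0.321, 0.254, 0.392 and 0.302 CPM in C57BL/6J libraries 1, 3, 4, 5 and 6 and at 3.80, 3.86, 1.92, 3.82 and 7.61 CPM in Rag2-/-γc-/- libraries 7 to 11. Its log2 fold change was -3.34 ± 0.42 (SE; adjusted p = 0.000837 in edgeR) and kept its call in all 10 fits that left out 1 library. The docking protein gene Dok2 (-0.67 ± 0.18, adjusted p = 0.0461) also fell, and Rasal2, another GTPase-activating protein gene, rose by 2.54 ± 0.61 (adjusted p = 0.0287), with 0.543 to 2.35 CPM in C57BL/6J recipients and 0.0170 to 0.455 CPM in Rag2-/-γc-/- recipients. With 1 library left out, Rasal2 was no longer called in the absence of library 4, 5, 8 or 9, and Dok2 in the absence of any library other than 1 and 10. Of the 17 genes 6 had a positive slope on Nras and 2 a negative one, against 12.2% and 14.9% of all tested genes. The steepest positive slopes of the named genes were those of Dok3 (1.41 ± 0.17), Errfi1 (1.03 ± 0.20), which encodes an inhibitor of EGF receptors, Rasa2 (0.82 ± 0.15), Cblb (0.55 ± 0.09) and Dok1 (0.38 ± 0.10), and Lztr1, which directs RAS proteins to breakdown, had -0.58 ± 0.08 (edgeR adjusted p = 0.000342 to 0.019).

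ERK-induced transcription factor and effector genes, the outputs of the pathway beyond its inhibitors, were called between recipients in edgeR at about the share of all tested genes (3.32% higher and 4.47% lower). Of 21 tested, none rose (1 at an unadjusted p under 0.05; 4 called by limma-voom with quality weights, 0 by limma-voom and DESeq2) and 1 fell, the AP-1 gene Fosl1 (0.287 ± 0.0913 CPM against 0.851 ± 0.410 CPM, SD, n = 5 each; log2 fold change -1.57 ± 0.36, SE; adjusted p = 0.023 in edgeR, but 0.0636 without C57BL/6J library 6). DESeq2 and limma-voom each called 2 of the 21 lower, and limma-voom with quality weights called 7. Of all 13967 tested genes these fits called 1155, 566 and 3218 lower. Fosl1 stood at or above the filter's minimum in 3 of 5 C57BL/6J and 5 of 5 Rag2-/-γc-/- libraries. The median of these 21 was -0.17. On Nras 6 had a positive and 3 a negative slope, against 12.2% and 14.9% of all tested genes. The median slope of the 21 was 0.58, against 0.02 over all tested genes and 0.12 in the members. Etv4, an ETS factor gene related to Etv5, had a slope of 0.58 ± 0.10 (edgeR adjusted p = 0.00172), the ephrin receptor gene Epha2 1.01 ± 0.25 (adjusted p = 0.012) and the survival gene Mcl1 0.43 ± 0.11 (adjusted p = 0.0162). Negative slopes were found for Myc (-1.10 ± 0.11, adjusted p = 0.000179), Ccnd1 (-1.15 ± 0.19, adjusted p = 0.00152) and Jun (-0.72 ± 0.15, adjusted p = 0.006). Ccnd1, the cyclin D1 gene, had 419 to 574 CPM in C57BL/6J recipients, 220 to 285 CPM in Rag2-/-γc-/- libraries 7, 8 and 9 and 707 and 784 CPM in libraries 10 and 11. Among all named genes outside the members, slopes lost their call without library 7 or 10 for Dok1, Epha2 and Mcl1, without library 10 for Jun, Phlda3 and Sos2, and without library 7, 8, 10 or 11 for Ptpn11.

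**Figure D5:**
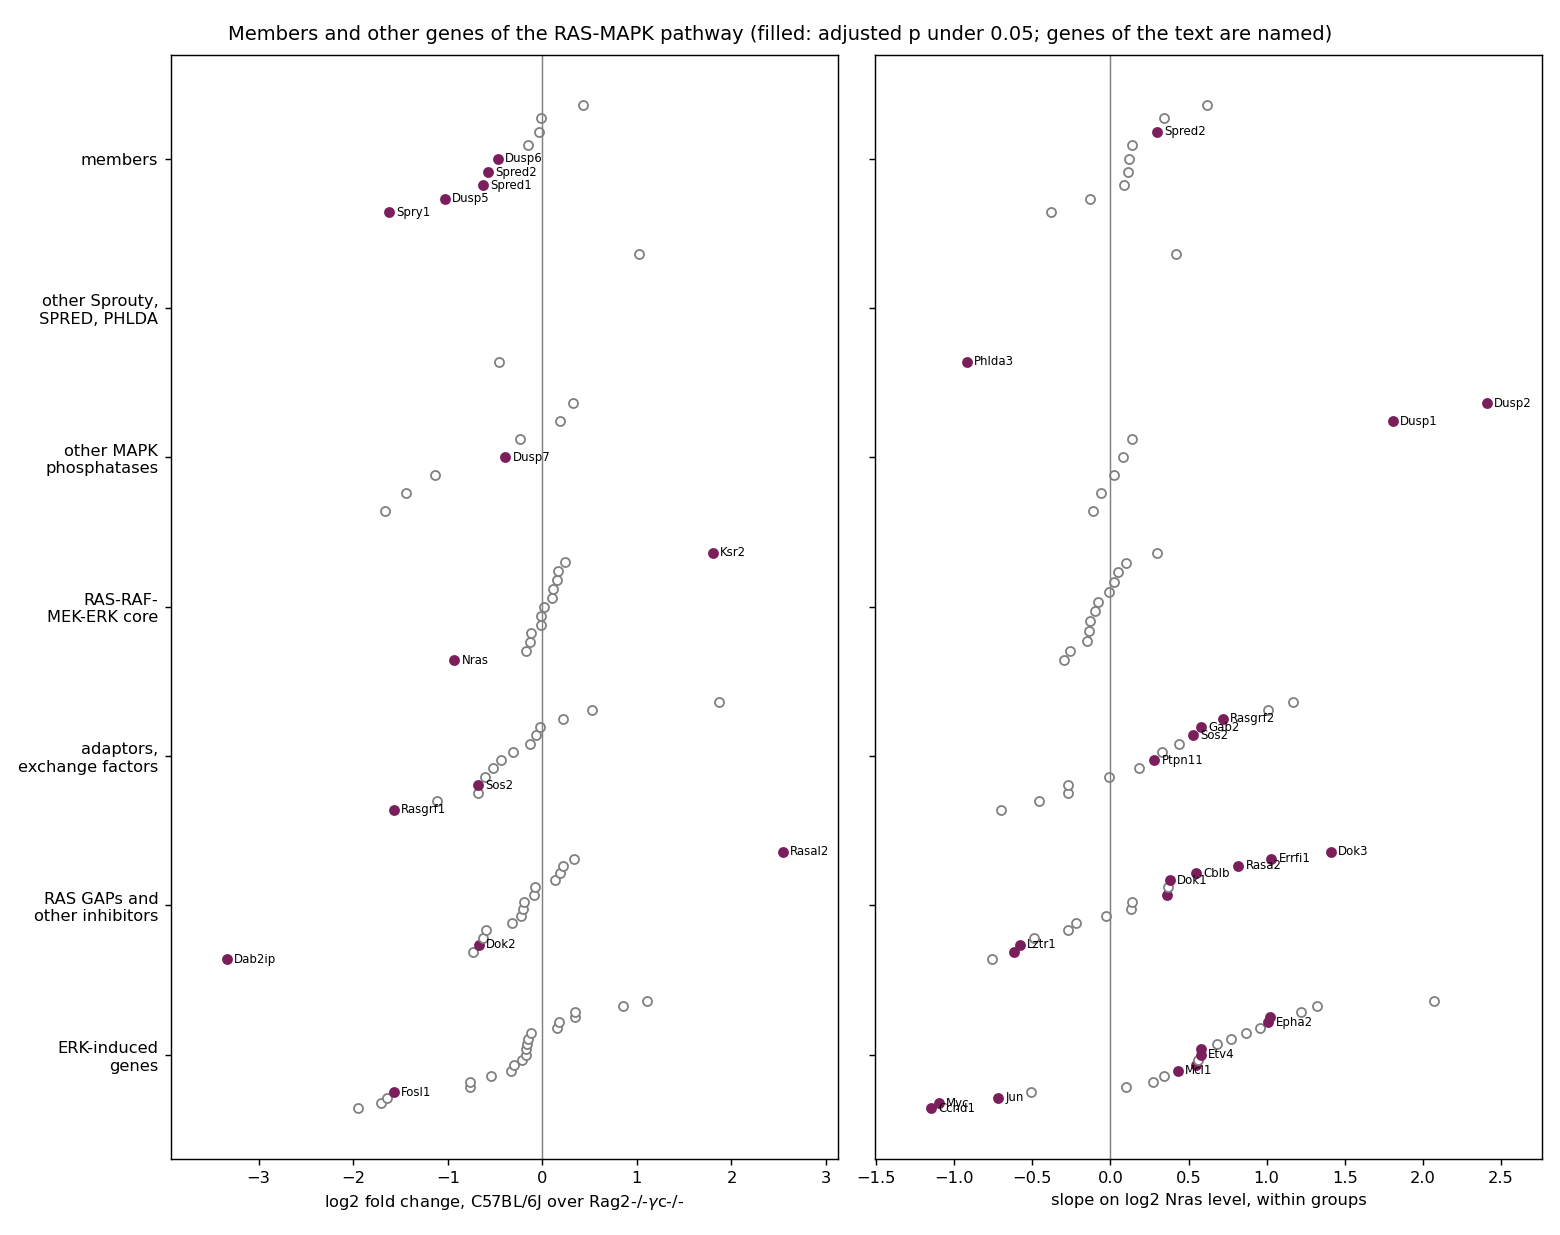
Log2 fold change between recipients (left, C57BL/6J over Rag2-/-γc-/-) and slope on log2 Nras within groups (right) for the members and 6 lists of other RAS-MAPK pathway genes, 1 point per tested gene reported here, filled where the edgeR adjusted p is under 0.05, with the filled genes that the text describes named; height within a row only separates the points. In the left panel 5 of 9 members are filled, all to the left of 0, and Dusp1 and Dusp2 lead the filled points of the right panel at 1.81 and 2.41.

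Genes with the most similar profile were sought for the 3 members with the smallest adjusted p, among 9204 tested genes averaging at least 5 CPM. Likeness was the root mean square difference of log2 CPM over the 10 libraries after each gene was centred on its mean. Nearest to Spred1 were Prkab1, a subunit gene of AMP-activated kinase (0.0964), the Toll-like receptor adaptor gene Tirap (0.0966) and Rab3gap2 (0.104), against a spread of 0.349 of Spred1 about its own mean. Prkab1 had 45.0 ± 3.82 CPM in C57BL/6J recipients and 72.4 ± 8.12 CPM in Rag2-/-γc-/- recipients (SD, n = 5 each). Nearest to Spred2 (spread 0.318) were the kinesin gene Kif1b (0.0694), Kansl1 (0.0702) and Arhgef7 (0.0703). Spry1 (spread 0.808) was matched less closely, by the ETS factor gene Ets2 (0.242), Ky (0.248) and Padi2 (0.271); Ets2 had 42.8 ± 8.12 CPM in C57BL/6J recipients and 103 ± 13.7 CPM in Rag2-/-γc-/- recipients.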

How the data were processed

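Poly(A)-selected RNA of GFP+ spleen cells was sequenced as single 75 bp reads from NEBNext Ultra libraries, per the labels' protocols. The authors deposited expected counts per gene for 10 libraries, 5 per group. Cutadapt 1.11, STAR 2.5.2a, RSEM 1.2.30, edgeR and build GRCm38 are named in the submitters' processing notes; their roles, their settings and an annotation release were not given in the sources used here. Estimates of this kind divide reads that fit several genes between them, and strand use is not stated.

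Values were rounded to whole numbers and tested with edgeR 4.0.16 (R 4.3.3; TMM, filterByExpr with minimum count 10 and minimum total 15, quasi-likelihood F test, Benjamini-Hochberg over 13967 genes, threshold 0.05). A further fit with a group term tested the slope on log2 CPM of Nras (prior count 2) over 13966 genes. Fold changes (log2) set C57BL/6J over Rag2-/-γc-/-. Exon lengths and positions came from GENCODE M21, in which 95.1% of the 38215 listed identifiers were found. Promoter windows of 250 bases came from RefSeq and were read for 7 of 10 members, all but Spry4, Dusp4 and Phlda1.

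The 10 members and 15 further lists (182 entries with the members, 181 matched) were chosen with earlier results of these data known. Named genes were all members and Nras, up to 6 called genes per pathway list, ranked by adjusted p (or, in a list with no call, the gene ranked first), and the 3 nearest genes to each of the 3 members with the smallest adjusted p; 2 genes that this rule takes are not reported here. Alternatives were RLE and upper quartile normalisation, DESeq2 1.42.0, limma-voom (limma 3.58.1) with and without quality weights, other filters, no group term, the Nras level as a covariate, and leaving out libraries.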

Additional observations from a re-analysis of the deposited data

Results flagged for a closer look

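One library stood apart from the other 4 of its group by the ratio of its gap to the group's range. Spry2 in Rag2-/-γc-/- library 9 was at 0.0362 CPM, which is a single count, while the other 4 libraries of that group were at 0 (gap over range 1.0, against a critical value of 0.71 for 5 libraries). Of 22 groups examined in this way (10 members and Nras in each group) this was the one that passed. Chance alone passes about 1 in 20 groups of continuous values, but that rate does not apply here: with 4 libraries at 0, any single count gives a ratio of 1.0.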

How the results depend on the processing

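No paired analysis was possible because the library numbers of the groups differ (1, 3, 4, 5 and 6 against 7 to 11). Members lower in C57BL/6J recipients numbered 5 under each other normalisation, DESeq2, limma-voom with and without quality weights and no filter, and 4 where 1 CPM in 5 libraries was required, which leaves out Spry1. They numbered 0 without Rag2-/-γc-/- libraries 7, 8 and 9, 2 with Nras as a covariate (chosen after seeing the data), and 3 to 5 with single libraries left out. Over all genes, counts higher and lower were 803 and 1155 in DESeq2, 3306 and 3218 with quality weights, 2786 and 2518 without libraries 10 and 11, 146 and 127 without 7, 8 and 9, 270 and 251 with the covariate, and 275 to 1078 and 303 to 1323 with single libraries left out. Positive and negative slopes numbered 0 and 0 without either set of libraries, and 595 to 2634 and 1013 to 2834 with single libraries left out; members with a positive slope numbered 4 without the group term, 0 without either set, and 0 to 2 with single libraries left out.

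Some values changed sign, none past the threshold after the change. Those of members were not called with all libraries, whereas the slopes of Ccnd1 (-1.15), Myc (-1.10), Jun (-0.72), Rasgrf2 (0.72) and Ptpn11 (0.28) were. Log2 fold changes turned to 0.06 (7, 8 and 9 left out) and 0.14 (covariate) for Spry4, 0.02 (quality weights) and 0.07 (10 and 11 left out) for Etv5, and 0.18 (quality weights) and 0.05 (covariate) for Phlda1. With single libraries left out they ranged from -0.05 to 0.02 for Etv5 and -0.12 to 0.09 for Phlda1. Slopes turned to 0.52 for Spry1 and -0.18 for Dusp4 without the group term. Without libraries 10 and 11 they were 0.43 for Spry1, 0.06 for Etv5, 0.45 for Ccnd1, 0.57 for Jun, -0.11 for Ptpn11 and -0.33 for Rasgrf2, and without 7, 8 and 9 they were 0.43 for Etv5, 0.16 for Ccnd1, 0.09 for Myc and -0.09 for Ptpn11. With single libraries left out slopes ranged from -0.13 to 0.80 for Dusp4, -0.01 to 0.16 for Dusp6 and -0.22 to 0.29 for Phlda1. The cause of these changes was not tested. Depth limits Spry1, Spry2 and Dusp4, all under 1 CPM in every library.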
